A study of Homo sapiens with 8 samples.

Results

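Messenger RNA of H9 cells was compared between day 2 and day 3 of co-culture. H9 is an established human embryonic stem cell line of the primed kind. The 4 libraries compared, of 8 in the series, were chosen by their titles alone, replicates 1 and 3 of the group D2_Co and replicates 1 and 2 of the group D3_Co. The other groups were D1_Co, day 1 of co-culture (replicates 2 and 3), and D3_Control, day 3 of separate culture (replicates 2 and 3), and their values are given beside the comparison. All groups were H9 cells of the same labelled passage range, with no genetic change and no added agent named. The labels give 2 ways of culture, mTeSR1 medium on a Matrigel coat, and NBFR medium over mouse embryonic fibroblasts that no longer divide. NBFR holds FGF2 and the WNT pathway inhibitor IWR1, but a library cannot be assigned to either from them. The partner cells, and how their RNA was kept out of the H9 libraries, are not named. A separate culture of day 2 was not analysed here, so the effect of 1 more day in culture and the effect of 1 more day beside other cells cannot be told apart. Nothing in the labels says that libraries of a group came from separate cultures, and p-values therefore measure only the spread between these samples.

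Primed human embryonic stem cells stand close to the epiblast of the implanted embryo. They express the pluripotency factors POU5F1, SOX2 and NANOG, and they depend on FGF and on NODAL or activin signals, which act through ERK and through SMAD2 and SMAD3. Higher NODAL, WNT or BMP signalling turns such cells towards the primitive streak, marked by genes such as EOMES, MIXL1 and CER1. Tension on actin fibres frees MRTF cofactors, which join the factor SRF at genes of the contractile apparatus, and it also brings YAP into the nucleus, where it acts with TEAD factors. MHC class I molecules, made of an HLA heavy chain and B2M, show peptides at the cell surface and are low in embryonic stem cells.

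Levels are in FPKM, a fragment count divided by transcript length and by the total mapped, so that genes are compared per length. Their sum over all genes lay between 421825 and 440675 in the 8 libraries, and since read numbers are unknown, no counting interval is given. As a check of the labelled cell type, the pluripotency factors were read first, and their RNA was abundant in every library of both days. POU5F1 stood at 739 and 734 FPKM in D2_Co and 811 and 779 FPKM in D3_Co. SOX2 stood at 125 and 117 FPKM in D2_Co and 130.2 and 120.5 FPKM in D3_Co. NANOG stood at 34.3 and 34.4 FPKM in D2_Co and 34.5 and 32.1 FPKM in D3_Co, and 0 of these 3 genes was called. The summed level of 33 core and primed pluripotency genes was 4433 to 4523 FPKM in D2_Co and 4680 to 4724 FPKM in D3_Co. In the deposited table many values stood on the row of another gene, and rows were restored before any comparison. Of 12449 tested genes, 4481 had a value moved in at least 1 library and 535 had a place that changed when the reference for restoring was varied.

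Between day 2 and day 3, 1980 of 12449 genes changed (15.9%), 1083 of them upwards (8.7%) and 897 downwards (7.21%), in limma's moderated test on log2(FPKM + 1) at a Benjamini-Hochberg adjusted p under 0.05. Most changes were small. The median absolute log2 difference of the called genes was 0.39, and the libraries of the days did not overlap in 7810 genes (62.7%). On this scale 66 genes changed by more than 2-fold, 20 upwards and 46 downwards. The median of all genes was 0.02. With libraries scaled by median-of-ratios size factors, 818 genes were called higher and 1081 lower, so the balance of directions depends on the scaling. The number of calls rests on having both libraries of a group. It was 570 without D2_Co replicate 1, 483 without D2_Co replicate 3, 475 without D3_Co replicate 1 and 667 without D3_Co replicate 2. The 282 genes called in all 4 of these fits (2.27%), 131 higher and 151 lower, include 47 of the 66 genes past 2-fold.

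**Figure D1:**
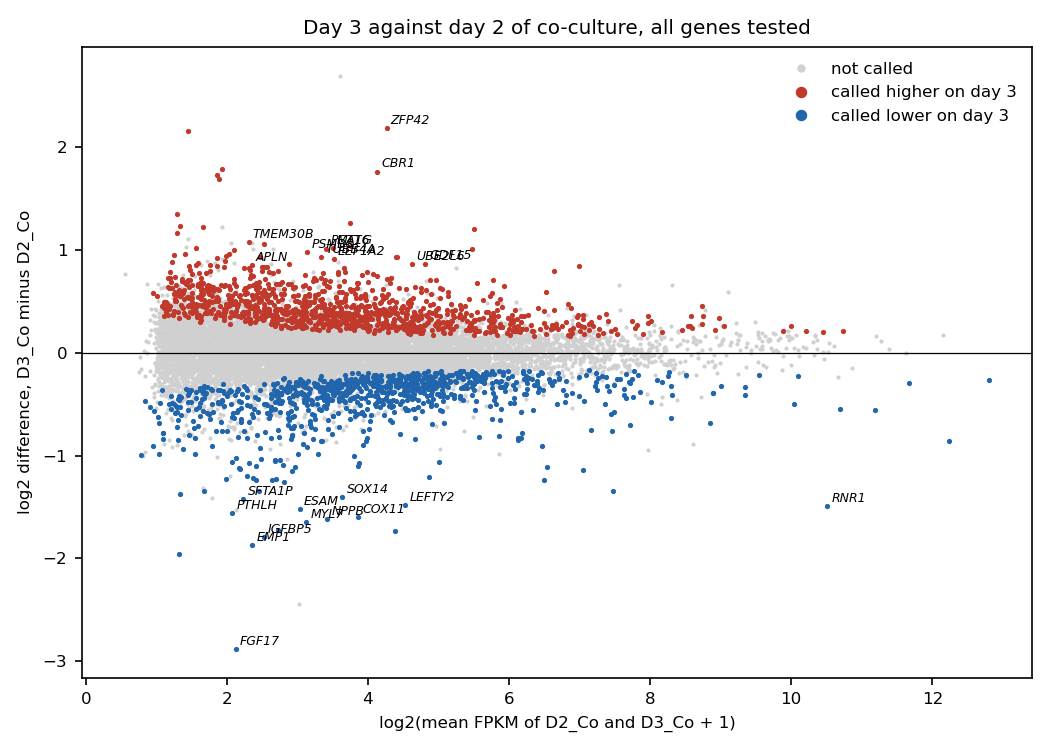
Log2 difference of D3_Co minus D2_Co against the log2 mean level (FPKM + 1) of the 4 libraries, for 12449 genes. Red points are genes called higher on day 3 (1083), blue points genes called lower (897) and grey points genes not called. The names mark genes among the 12 largest rises and the 12 largest falls of those called in all 4 fits without 1 library, with ZFP42 at 2.19 and FGF17 at -2.88.

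The step from day 2 to day 3 was also set against the step from day 1 to day 2. In a limma contrast of the steps, 549 genes differed (4.41%), 209 with the later step higher and 340 with the later step lower. Of these, 439 were also called between day 2 and day 3. The steps share the D2_Co libraries, so a gene that is low or high in D2_Co alone appears in both with opposite signs. The count of the contrast fell to 34 without D2_Co replicate 1 and to 28 without D2_Co replicate 3, and was 155 without D3_Co replicate 1 and 357 without D3_Co replicate 2. Without D1_Co replicate 2 it was 215, without D1_Co replicate 3 it was 224, without D3_Control replicate 2 it was 280 and without D3_Control replicate 3 it was 281.

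Among the 24 genes of largest change, ZFP42 rose the most. ZFP42, also called REX1, is a zinc finger factor used as a marker of undifferentiated embryonic stem cells (chromosome 4, 187995771 to 188005050, plus strand, GRCh38). It stood at 6.01 and 5.82 FPKM in D2_Co and 30.2 and 30.8 FPKM in D3_Co. Its levels were 11 and 12.4 FPKM in D1_Co and 36.5 and 36.8 FPKM in D3_Control. The D2_Co libraries were thus the lowest of all 8, and D3_Co lay between D1_Co and D3_Control without overlap. The log2 difference between day 2 and day 3 was 2.19 (SE 0.0649, limma adjusted p = 4.37e-05). From day 1 to day 2 it was -0.87 (SE 0.0649, limma adjusted p = 0.00297), and the steps differed by 3.06 (SE 0.112, limma adjusted p = 0.000202).

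**Figure D2:**
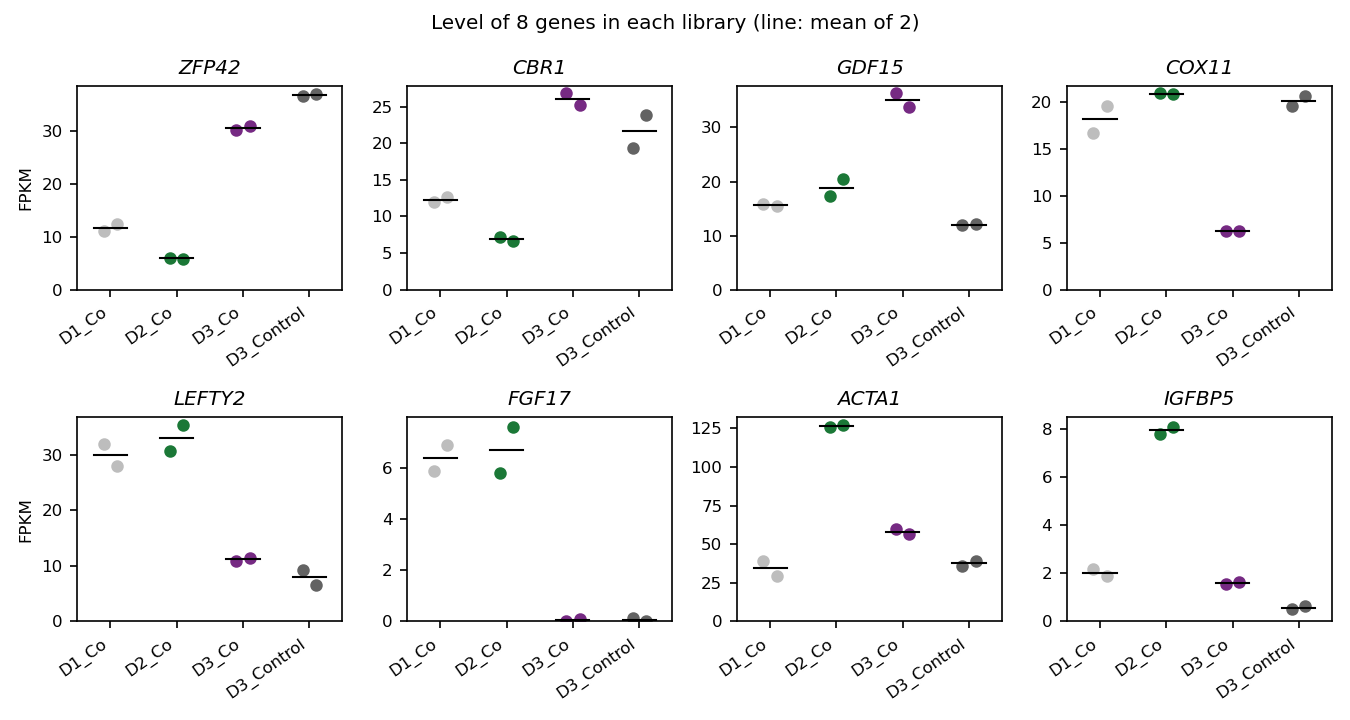
Levels of 8 genes in FPKM (vertical axes from 0) in each of the 8 libraries, by group. Points are libraries and the lines are means of 2 libraries. ZFP42, CBR1 and GDF15 are higher in D3_Co than in D2_Co, and COX11, LEFTY2, FGF17, ACTA1 and IGFBP5 are lower. The 2 groups overlap in no panel, but the rule for the genes of largest change required this of all but ACTA1. It also holds for 62.7% of all genes.

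Other genes of the core and primed pluripotency list moved in both directions. Of 33 measured members, 6 rose and 5 fell (18.2% and 15.2%), with a median of 0.051. In the fits without D2_Co replicate 1, D2_Co replicate 3, D3_Co replicate 1 and D3_Co replicate 2 in turn, 3, 3, 1 and 3 members were called higher and 2, 3, 2 and 2 lower. OTX2, a homeobox factor of the primed and anterior epiblast, fell. It had 27.1 and 26.4 FPKM in D2_Co and 15.2 and 14.9 FPKM in D3_Co, with 33.1 and 29.3 FPKM in D3_Control, which puts D3_Co below every other library. Its log2 difference was -0.79 (SE 0.0716, limma adjusted p = 0.00286). PRDM14, a repressor that guards pluripotency in human cells, went from 65.0 and 64.6 FPKM to 40.5 and 42.0 FPKM, a log2 difference of -0.64 (SE 0.0611, limma adjusted p = 0.00293). FOXD3, another factor of the primed epiblast, had 5.56 and 4.83 FPKM in D2_Co and 3.07 and 3.10 FPKM in D3_Co and a log2 difference of -0.60 (SE 0.106, limma adjusted p = 0.0149). In D3_Control FOXD3 stood higher, at 11.3 and 12.5 FPKM. SALL4 and PODXL also fell (log2 differences -0.29 and -0.22). Besides ZFP42, the risers were TERF1, a telomere-binding protein, UTF1, a chromatin factor of undifferentiated cells, DPPA2, a chromatin factor of early embryos, FOXH1, the partner of SMAD2 in NODAL signalling, and ESRG, a non-coding RNA of pluripotent cells, which went from 443 FPKM in each library to 557 and 568 FPKM. TERF1 rose from 76.2 and 66.5 FPKM to 98.9 and 94.4 FPKM and UTF1 from 11.1 and 16.4 FPKM to 28.9 and 24.6 FPKM, though the place of the UTF1 row is unsettled. The calls of FOXD3, SALL4, PODXL, TERF1, UTF1, DPPA2, FOXH1 and ESRG did not hold in all of those fits (highest limma adjusted p per gene between 0.0606 and 0.128). Of 7 measured naive pluripotency genes 4 fell and 0 rose (57.1% and 0%, against 7.21% and 8.7% over all genes). KLF5 went from 11.6 FPKM in each library to 8.40 and 8.01 FPKM, TFAP2C from 25.2 and 26.3 FPKM to 19.8 and 18.5 FPKM and SOX15 fell (log2 difference -0.58). These are transcription factors, while the other member that fell is the ligand NODAL. The calls of KLF5, TFAP2C and SOX15 did not hold in all of those fits (highest limma adjusted p per gene between 0.114 and 0.183). KLF17, DPPA3 and DPPA5, defining genes of the naive state, were among 11 members below the filter.

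Most measured genes of the primitive streak list fell. Of 8 measured members 7 fell (87.5%) and 1 rose, and the median log2 difference was -0.99, against 0.02 over all genes. Leaving out D2_Co replicate 1, D2_Co replicate 3, D3_Co replicate 1 and D3_Co replicate 2 in turn gave 5, 5, 5 and 6 members called lower. The other 15 of 23 members, among them TBXT, GSC, MESP1 and SOX17, were below the filter, so the count covers genes that had RNA in some group, and some of them passed only through the groups in which they were high. With a mean of at least 5 FPKM required, 1 member fell and 1 rose. CER1, a secreted antagonist of NODAL, BMP and WNT, was the most abundant member. It stood at 242 and 264 FPKM in D2_Co and 97.4 and 100.3 FPKM in D3_Co. Levels in D1_Co were 367 and 319.7 FPKM, and in D3_Control 48.6 and 41.2 FPKM. The groups therefore ran downwards from day 1 to day 3, with D3_Co still above D3_Control. The log2 difference between day 2 and day 3 was -1.35 (SE 0.0956, limma adjusted p = 0.00155).

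EOMES, a T-box factor of the streak, fell to near 0. It had 0.989 and 1.60 FPKM in D2_Co and 0.150 and 0.142 FPKM in D3_Co. In D1_Co it stood at 3.67 and 4.11 FPKM and in D3_Control at 0.179 and 0.0724 FPKM. SP5, a target of WNT signalling, went the same way, with 2.97 and 4.24 FPKM in D2_Co and 0.693 and 0.907 FPKM in D3_Co and a log2 difference of -1.34 (SE 0.149, limma adjusted p = 0.00428). Its D1_Co levels were 6.68 and 7.61 FPKM, so it had also been lower on day 2 than on day 1 (log2 difference -0.84 (SE 0.149, limma adjusted p = 0.0268)). CXCR4, a chemokine receptor of definitive endoderm, had 5.81 and 6.66 FPKM in D2_Co and 2.19 and 2.03 FPKM in D3_Co. LHX1, a homeobox factor of mesendoderm, fell (log2 difference -0.99), as did MIXL1, a homeobox factor of the streak (-0.59). FOXA2, which marks endoderm and axial mesoderm, had 1.01 and 1.14 FPKM in D2_Co and 0.629 and 0.368 FPKM in D3_Co, and D3_Control was higher than each of these at 1.71 and 1.63 FPKM. The riser was KDR, a VEGF receptor, which went from 16.7 and 16.2 FPKM to 22.5 and 21.5 FPKM. The calls of MIXL1, FOXA2 and KDR did not hold in all of those fits (highest limma adjusted p per gene between 0.0861 and 0.159), where the fits leave out D2_Co replicate 1, D2_Co replicate 3, D3_Co replicate 1 or D3_Co replicate 2. Beside this list, the summed level of 13 endoderm and hepatic markers, most of it CER1, was 251 to 274 FPKM in D2_Co. In D3_Co it was 102 to 105 FPKM. Of these 13 genes 9 were under 1 FPKM in all 4 libraries and TTR was listed at 0, and the part of endoderm cells in the fall was not tested. Fewer cells of a type and less RNA per cell cannot be told apart in such bulk samples.

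NODAL and its antagonist LEFTY2 fell. Of 20 measured members of the NODAL list 6 fell and 2 rose (30% and 10%), with a median of -0.13, and 3 members were called lower in each of the fits without D2_Co replicate 1, D2_Co replicate 3, D3_Co replicate 1 or D3_Co replicate 2. Over all genes 7.21% were called lower and 8.7% higher. NODAL itself had 42.4 and 44.5 FPKM in D2_Co and 33.4 and 34.7 FPKM in D3_Co. Its log2 difference was -0.34 (SE 0.0489, limma adjusted p = 0.00861), and from day 1 to day 2 it had been -0.36 (SE 0.0489, limma adjusted p = 0.0139). The later step did not differ detectably from the earlier step for NODAL (limma adjusted p = 0.898). LEFTY2, a secreted NODAL antagonist and target (chromosome 1, 225936598 to 225941489, minus strand), stood at 30.6 and 35.3 FPKM in D2_Co and 10.8 and 11.5 FPKM in D3_Co, and at 32 and 28.0 FPKM in D1_Co and 9.24 and 6.53 FPKM in D3_Control. Day 1 and day 2 overlapped, while D3_Co reached near the separate culture, with a log2 difference of -1.48 (SE 0.147, limma adjusted p = 0.00304) against day 2. LEFTY1, its near-identical neighbour, had 139 and 126 FPKM in D2_Co and 119 and 128 FPKM in D3_Co and was not called (log2 difference -0.10, limma adjusted p = 0.393). Reads of the LEFTY copies can be split between them, and how they were counted is not stated. SMAD3, which carries the signal to the nucleus, fell (log2 difference -0.32), as did the protease FURIN (-0.27). The receptor gene ACVR2B rose from 8.97 and 9.62 FPKM to 11.8 and 12 FPKM and FOXH1 from 42.7 and 41.4 FPKM to 50.4 and 47.7 FPKM. The calls of SMAD3, FURIN, ACVR2B and FOXH1 did not hold in all of those fits (highest limma adjusted p per gene between 0.111 and 0.199).

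In the BMP and WNT lists more members fell than rose, but most were not called. Calls lower made up 40% of the BMP list and 23.5% of the WNT list, against 7.21% over all genes. Calls higher made up 6.67% and 5.88%, against 8.7% over all genes. Of 15 BMP genes 6 fell and 1 rose, and the differences of all 15, called or not, were above 0 in 7 and below 0 in 8 (median -0.20), and 3 were called lower in every fit without 1 of D2_Co replicate 1, D2_Co replicate 3, D3_Co replicate 1 and D3_Co replicate 2. ID1, an inhibitor of differentiation and direct target of BMP signalling, had 59.1 and 60.9 FPKM in D2_Co and 34.7 and 32.4 FPKM in D3_Co, with 59.0 and 62.1 FPKM in D1_Co and 42.7 and 40.3 FPKM in D3_Control. D3_Co was thus the lowest group, and its log2 difference from day 2 was -0.82 (SE 0.0572, limma adjusted p = 0.00155). Among antagonists, GREM1, which binds BMP ligands, went from 9.27 and 8.60 FPKM to 3.24 and 3.08 FPKM (log2 difference -1.26), and BAMBI, a decoy receptor, from 22.3 and 23.8 FPKM to 15.9 and 15.6 FPKM (-0.52). FST, which binds activin, fell (log2 difference -0.72). The ligand genes BMP2 and BMP4 fell (log2 differences -0.58 and -0.37), and BMP7 rose (log2 difference 0.29). The calls of FST, BMP2, BMP4 and BMP7 did not hold in all of those fits (highest limma adjusted p per gene between 0.0755 and 0.125). Of 17 WNT genes 4 fell and 1 rose, and the differences of the 17 were above 0 in 8 and below 0 in 9. SFRP1, a secreted WNT antagonist, had 17.7 and 16.5 FPKM in D2_Co and 11 and 11.3 FPKM in D3_Co, far under the 31.9 and 29.4 FPKM of D3_Control. WNT10B, a ligand, had 8.25 and 8.50 FPKM in D2_Co and 5.50 and 5.43 FPKM in D3_Co while D3_Control stood at 0.251 and 0.209 FPKM. It was therefore still 2.39 above separate culture on the log2 scale on day 3 (limma adjusted p = 2.22e-05). AXIN2, a feedback target of WNT, fell (log2 difference -0.30), and ZNRF3, which removes WNT receptors, rose (log2 difference 0.29). The calls of AXIN2 and ZNRF3 did not hold in all of those fits (highest limma adjusted p per gene between 0.136 and 0.145).

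FGF17 showed the largest fall of the comparison. FGF17 is a ligand of the FGF8 family (chromosome 8, 22042398 to 22048809, plus strand). It had 5.79 and 7.6 FPKM in D2_Co and 0 and 0.0744 FPKM in D3_Co, and 5.90 and 6.91 FPKM in D1_Co. D3_Control was also near 0, at 0.122 and 0 FPKM. The gene was therefore on in the first days of co-culture and at or near 0 in both day 3 groups, with a log2 difference of -2.88 (SE 0.141, limma adjusted p = 0.000376) between day 2 and day 3. FGF8, its close relative, had 4.96 and 4.67 FPKM in D2_Co and 2.55 and 1.31 FPKM in D3_Co, with 7.82 and 9.76 FPKM in D1_Co and 2.14 and 2.12 FPKM in D3_Control. The FGF8 difference was -1.02 (SE 0.193, limma adjusted p = 0.0180). Of 23 measured members of the FGF and ERK feedback list 4 fell and 1 rose (17.4% and 4.35%), the others being the receptor genes FGFR3 (-0.52) and FGFR4 (0.40) and the ERK phosphatase DUSP4 (-0.48). In the fits without D2_Co replicate 1, D2_Co replicate 3, D3_Co replicate 1 and D3_Co replicate 2 in turn, 1, 2, 2 and 3 members were called lower. The calls of FGF8, FGFR3, FGFR4 and DUSP4 did not hold in all of those fits (highest limma adjusted p per gene between 0.0557 and 0.119). FGF1, a ligand outside this list chosen after its values were seen, had 8.27 and 8.63 FPKM in D2_Co and 3.36 and 3.48 FPKM in D3_Co and 0.585 and 0.455 FPKM in D3_Control.

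**Figure D3:**
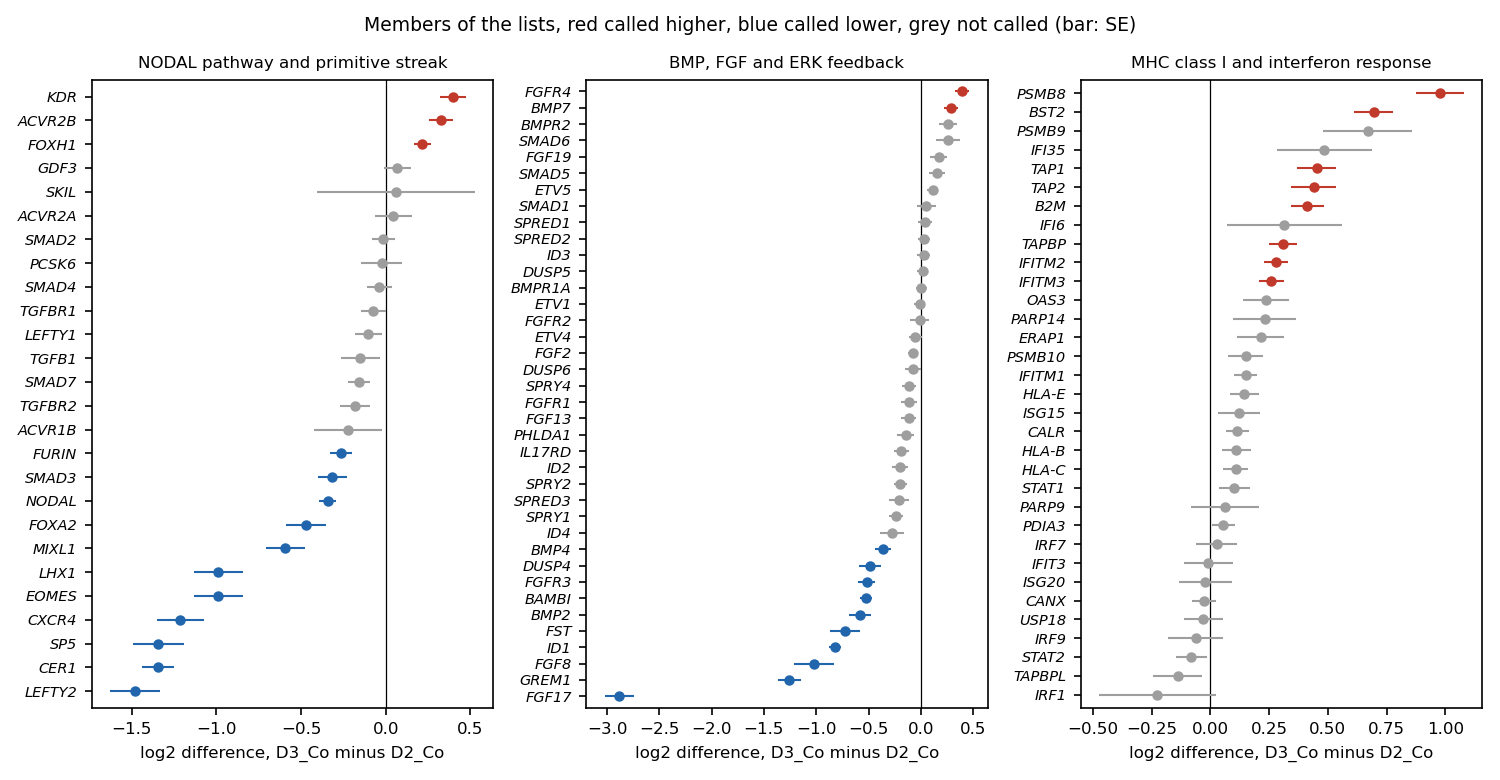
Log2 differences of D3_Co minus D2_Co (points, with SE as bars) for the NODAL and primitive streak lists, the BMP and FGF lists, and the MHC class I and interferon lists. Red marks members called higher, blue members called lower and grey members not called. Of the streak list 7 of 8 members are blue, and of the MHC class I members drawn, 5 are red and 0 are blue. Some streak members passed the filter only through groups in which they were high.

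Genes of the contractile apparatus fell between the days, 19 of 27. Promoters are shown for 4 members whose window of 300 bases holds a CArG box, the letters that SRF binds: a CC, 6 letters that are each A or T, and a GG. Each stretch of 100 bases is on the strand of its gene, from RefSeq, GRCh38.p14, with the box in capitals. They are chr1:229434137-229434236 for ACTA1 (minus strand), chr15:34795604-34795703 for ACTC1 (minus strand), chr2:73892853-73892952 for ACTG2 (plus strand) and chr7:44141339-44141438 for MYL7 (minus strand).
ACTA1: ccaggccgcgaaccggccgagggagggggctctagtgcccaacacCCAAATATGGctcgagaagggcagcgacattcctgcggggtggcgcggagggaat
ACTC1: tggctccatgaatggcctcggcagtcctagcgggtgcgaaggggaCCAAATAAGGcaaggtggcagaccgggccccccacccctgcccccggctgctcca
ACTG2: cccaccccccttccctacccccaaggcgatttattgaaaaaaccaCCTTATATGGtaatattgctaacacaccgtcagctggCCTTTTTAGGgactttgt
MYL7: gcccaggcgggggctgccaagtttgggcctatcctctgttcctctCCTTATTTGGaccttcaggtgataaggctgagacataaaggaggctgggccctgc

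A CArG box, which reads alike on either strand, was found in 454 of 35116 RefSeq promoter windows of this length (1.29%), and 438 of 27305 genes with a window had one (1.6%). Among contractile members with a window, 11 of 24 had one, namely 8 of 16 called lower, 3 of 7 not called and 0 of 1 called higher. These letters are a description of the windows and not a measured binding site.

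Of 27 measured contractile and actin genes 19 fell and 1 rose (70.4% and 3.70%), with a median log2 difference of -0.33. In the fits without D2_Co replicate 1, D2_Co replicate 3, D3_Co replicate 1 and D3_Co replicate 2 in turn, 10, 9, 8 and 10 members were called lower, 8 of them in all 4. MYL7, the myosin light chain of the heart atrium, had the largest fall of the list (chromosome 7, 44138864 to 44141332, minus strand). It stood at 12.9 and 11.5 FPKM in D2_Co and 3.91 and 2.61 FPKM in D3_Co, against 6.68 and 6.77 FPKM in D1_Co and 4.36 and 3.57 FPKM in D3_Control. The D2_Co libraries were the highest of all 8, and the log2 difference to day 3 was -1.65 (SE 0.152, limma adjusted p = 0.00286). ACTA1, skeletal muscle alpha-actin, had 126 and 127 FPKM in D2_Co and 59.5 and 56.4 FPKM in D3_Co. Its levels were 39.0 and 29.6 FPKM in D1_Co and 35.9 and 39.3 FPKM in D3_Control, so that day 2 again stood above all other groups and day 3 above the separate culture. The difference was -1.11 (SE 0.116, limma adjusted p = 0.00352). ACTC1, cardiac alpha-actin, had 19.8 and 17.8 FPKM in D2_Co and 8.87 and 7.91 FPKM in D3_Co, and 3.96 and 3.53 FPKM in D1_Co. Its difference between the days was -1.07 (SE 0.0878, limma adjusted p = 0.00230), and the step from day 1 to day 2 had been 2.06 (SE 0.0878, limma adjusted p = 0.000579).

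Smooth muscle genes followed. CNN1, a calponin that binds actin, had 88.5 and 94.1 FPKM in D2_Co and 50.0 and 52.3 FPKM in D3_Co. TAGLN, the actin-bundling transgelin, had 206 and 236 FPKM in D2_Co and 123 and 137 FPKM in D3_Co, and ACTG2, smooth muscle gamma-actin, 86.0 and 91.5 FPKM in D2_Co and 47.9 and 49.8 FPKM in D3_Co. In none of the 3 genes did the days overlap, as in 62.7% of all genes, and the log2 differences were -0.82, -0.76 and -0.85. TGFB1I1, a focal adhesion cofactor also called HIC5, went from 41.0 and 43.8 FPKM to 19 and 20.7 FPKM and PDLIM7, an actin-associated scaffold, from 252 and 266 FPKM to 160.0 and 157 FPKM. TPM1, a tropomyosin, fell (log2 difference -0.57), as did MYL9, a non-muscle and smooth muscle light chain (-0.64), and the transcription factor SRF (-0.33). Cytoplasmic actins fell too, ACTB from 7930.3 and 7658 FPKM to 6580.4 and 6365 FPKM (log2 difference -0.27), as did ACTG1 (-0.29). Under quantile normalization the ACTB difference was 0, since this method gives the most abundant gene the same value in each library. The calls of ACTG2, MYL9, SRF, ACTB and ACTG1 did not hold in all of those fits (highest limma adjusted p per gene between 0.0610 and 0.177), each of which leaves out D2_Co replicate 1, D2_Co replicate 3, D3_Co replicate 1 or D3_Co replicate 2. ACTA2, smooth muscle alpha-actin, was the exception and rose. It stood at 6.35 and 6.80 FPKM in D2_Co and 12.4 and 11.6 FPKM in D3_Co, with 6.30 and 7.98 FPKM in D1_Co and 6.31 FPKM in each library in D3_Control. D3_Co was thus above every other library, with a log2 difference of 0.78 (SE 0.103, limma adjusted p = 0.00700). Actin genes are alike in their coding sequence, and ACTA2 shares 30.1% of its exonic bases with another gene, TPM1 21.4% and TAGLN 11.4%, so that part of their levels may belong to other genes.

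Among targets of YAP and TEAD, 9 genes fell. Of 25 measured members 9 fell and 0 rose (36.0%), with a median of -0.18, and 6, 4, 4 and 5 were called lower in the fits without D2_Co replicate 1, D2_Co replicate 3, D3_Co replicate 1 and D3_Co replicate 2. ANKRD1, a muscle ankyrin-repeat protein, had 8.85 and 9.36 FPKM in D2_Co and 1.72 and 2.43 FPKM in D3_Co, 4.8 and 3.82 FPKM in D1_Co and 0.216 and 0.183 FPKM in D3_Control. Day 2 was highest, and D3_Co remained above the separate culture by 1.35 on the log2 scale (limma adjusted p = 0.00121). The place of the ANKRD1 row is unsettled. AMOTL2, which holds YAP in the cytoplasm, went from 37.1 and 34.0 FPKM to 25.3 and 24.1 FPKM and FJX1, a secreted growth regulator, fell (log2 difference -0.60). CCN1, a matricellular protein and classical YAP target, fell (log2 difference -0.32), as did the receptor gene AXL (-0.32), and F3, tissue factor (-0.65). The calls of CCN1, AXL and F3 did not hold in all of those fits (highest limma adjusted p per gene between 0.0787 and 0.175). YAP1 itself had 34.6 and 34.2 FPKM in D2_Co and 30.3 and 31.7 FPKM in D3_Co and was not called (log2 difference -0.15, limma adjusted p = 0.103).

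**Figure D4:**
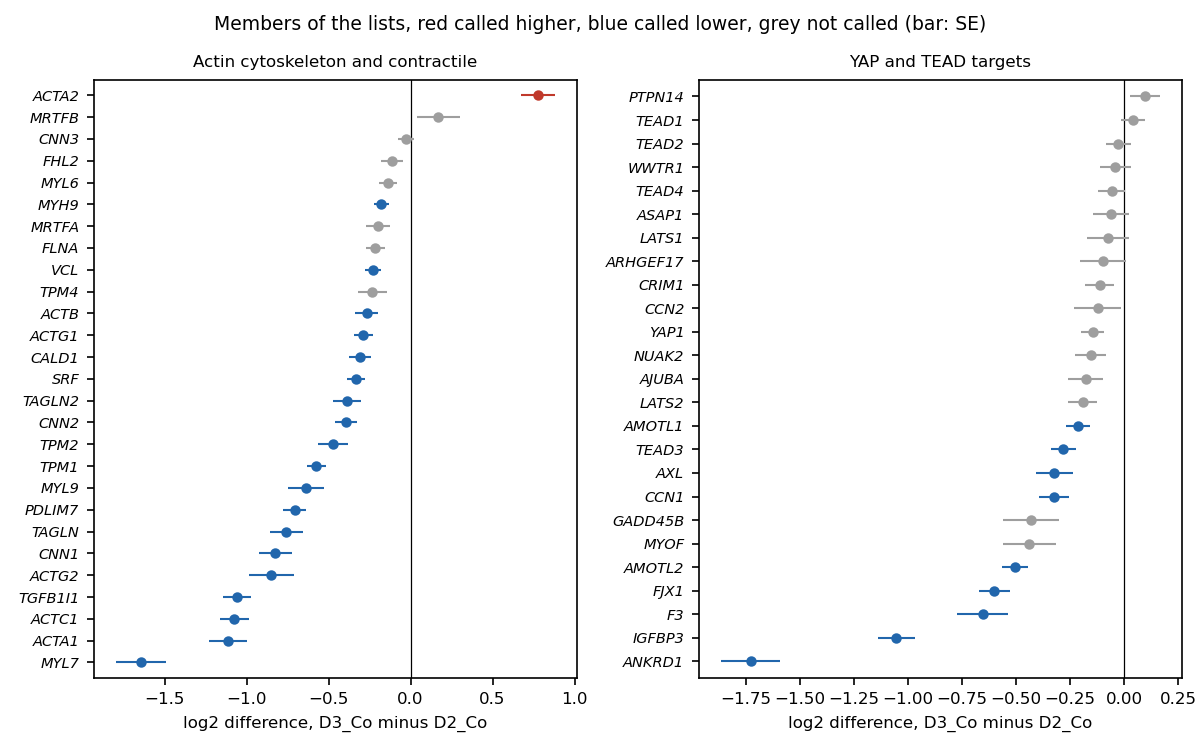
Log2 differences of D3_Co minus D2_Co (points, with SE as bars) for 27 actin and contractile genes and 25 YAP and TEAD targets. Blue members were called lower, red members higher and grey members were not called. ACTA2 at 0.78 is the only red point, and 28 blue points across the panels mark 19 contractile genes and 9 YAP targets.

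Mesenchymal, matrix and attachment genes changed along with them. Of 25 mesenchymal and EMT genes 12 fell and 2 rose (48% and 8%, median -0.30). The 36 matrix genes gave 11 falls and 5 rises (30.6% and 13.9%, median -0.08). The 26 attachment genes gave 6 falls and 1 rise (23.1% and 3.85%, median -0.17). The shares over all genes were 7.21% and 8.7%. In turn without D2_Co replicate 1, D2_Co replicate 3, D3_Co replicate 1 and D3_Co replicate 2, 6, 3, 3 and 4 EMT, 6, 6, 5 and 5 matrix and 1, 1, 1 and 1 attachment genes were called lower. CAV1, the coat protein of caveolae, had 112 and 116 FPKM in D2_Co and 64.9 and 56.3 FPKM in D3_Co, and its log2 difference was -0.90 (SE 0.103, limma adjusted p = 0.00447). VIM, the intermediate filament vimentin, went from 1184 and 1288 FPKM to 857 and 893 FPKM (-0.50), and D3_Control stood at 542 and 419.8 FPKM. TWIST1, an EMT transcription factor, fell (log2 difference -0.86), as did ANXA1, a calcium-dependent membrane protein (-0.75). Against these, the calcium-binding proteins S100A6 and S100A4 rose. S100A6 had 0.700 and 0.735 FPKM in D2_Co and 5.24 and 4.65 FPKM in D3_Co, and 1.93 and 2.69 FPKM in D1_Co, so its lowest libraries were those of day 2. Its log2 difference was 1.79 (SE 0.125, limma adjusted p = 0.00155). The calls of VIM, TWIST1, ANXA1 and S100A4 did not hold in all of those fits (highest limma adjusted p per gene between 0.0781 and 0.162).

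Matrix genes changed in both directions, also within the laminins and the collagens. TNC, the glycoprotein tenascin C of remodelling tissue, had 32.5 and 47.5 FPKM in D2_Co and 15.7 and 17.3 FPKM in D3_Co, with 4.68 and 4.76 FPKM in D3_Control, and a log2 difference of -1.20 (SE 0.161, limma adjusted p = 0.00713). LOX and LOXL2, which cross-link collagen, fell (log2 differences -0.85 and -0.44), and LAMB1, a laminin chain, and COL18A1, a basement membrane collagen, each fell (log2 difference -0.49). In the opposite direction, the fibrillar collagen genes COL1A1 and COL1A2 rose, COL1A1 from 28.3 and 30.3 FPKM to 42.5 and 40.0 FPKM and COL1A2 from 16.6 and 19.7 FPKM to 25.1 and 24.9 FPKM, while COL5A1, another fibrillar collagen, fell from 9.15 and 11.2 FPKM to 7.07 and 7.38 FPKM. LAMA1, a laminin chain of early basement membranes, rose (log2 difference 0.50). Among attachment genes, LIMS2, a partner of integrin-linked kinase, had 12.4 and 11.6 FPKM in D2_Co and 6.28 and 6.03 FPKM in D3_Co and a log2 difference of -0.86 (SE 0.0801, limma adjusted p = 0.00286). ITGAV, an integrin chain, fell (log2 difference -0.37), as did ZYX, a protein of focal adhesions (-0.32), while the tetraspanin gene CD9 rose (log2 difference 0.30). Further fits left out D2_Co replicate 1, D2_Co replicate 3, D3_Co replicate 1 or D3_Co replicate 2. The calls of COL1A2, COL5A1, LAMA1, ITGAV, ZYX and CD9 did not hold in all of those fits (highest limma adjusted p per gene between 0.0741 and 0.150). Fibroblast markers moved in both directions beside these lists, with 4 of 15 measured members called higher and 6 lower (26.7% and 40%). COL1A1, COL1A2, S100A4 and ACTA2 were the 4 that rose. The summed level of 24 such genes, which include VIM, TAGLN and COL1A1, was 2031 to 2154 FPKM in D2_Co, 1621 to 1663 FPKM in D3_Co and 1029 to 1222 FPKM in D3_Control. This sum is mostly VIM, so it follows VIM and, to a lesser degree, TAGLN. Of them 9 were under 1 FPKM in all 4 libraries, and the defining markers DCN, LUM and FAP were listed at 0. The part of other cells in the contractile and matrix results was not tested beyond these values.

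Epithelial junction genes changed in both directions. Of 37 measured claudin, cadherin and tight junction genes 5 rose and 3 fell (13.5% and 8.11%, against 8.7% and 7.21% over all genes), and 2, 2, 2 and 3 were called higher without D2_Co replicate 1, D2_Co replicate 3, D3_Co replicate 1 and D3_Co replicate 2. TJP3, a tight junction scaffold, had 3.19 and 3.01 FPKM in D2_Co and 5.62 and 5.50 FPKM in D3_Co and a log2 difference of 0.68 (SE 0.0909, limma adjusted p = 0.00725). CDH1, E-cadherin, rose (log2 difference 0.26), as did CLDN7, a claudin (0.31). JUP, plakoglobin, fell from 96.2 and 93.6 FPKM to 76.5 and 73.2 FPKM, and GJA1, the gap junction protein connexin 43, from 299.8 and 297 FPKM to 249 and 247 FPKM. The calls of CDH1, CLDN7 and GJA1 did not hold in all of those fits (highest limma adjusted p per gene between 0.0707 and 0.113). Of 15 urokinase and plasminogen system genes 5 fell and 0 rose (33.3% and 0%). Those that fell included PLAT, tissue plasminogen activator (-0.42), MMP2, a gelatinase (-0.30), and SERPINB9, an inhibitor of granzyme B (-0.57). Counts lower in the same fits were 3, 0, 0 and 0. The calls of PLAT, MMP2 and SERPINB9 did not hold in all of those fits (highest limma adjusted p per gene between 0.0588 and 0.0766).

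Of 16 measured genes of antigen presentation by MHC class I, 6 rose. Promoter stretches are shown for 5 members that rose and whose window holds the core letters of the element bound by interferon regulatory factors, GAAA, then 2 letters of any kind, then GAAA. Both strands were searched, and a match on the other strand reads TTTC, 2 letters, TTTC as printed. Matches are in capitals, overlapping matches as 1 run, in 100 bases on the strand of the gene from RefSeq, GRCh38.p14. They are chr15:44711328-44711427 for B2M (plus strand), chr6:32853784-32853883 for TAP1, chr6:32838743-32838842 for TAP2, chr6:32843998-32844097 for PSMB8 and chr6:33314044-33314143 for TAPBP (all minus strand).
B2M: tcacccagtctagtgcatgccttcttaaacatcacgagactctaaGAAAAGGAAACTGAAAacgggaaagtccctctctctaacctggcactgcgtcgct
TAP1: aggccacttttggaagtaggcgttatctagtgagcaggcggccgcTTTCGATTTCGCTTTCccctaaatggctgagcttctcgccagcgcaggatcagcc
TAP2: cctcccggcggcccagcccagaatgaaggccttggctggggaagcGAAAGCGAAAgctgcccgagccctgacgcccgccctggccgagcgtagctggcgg
PSMB8: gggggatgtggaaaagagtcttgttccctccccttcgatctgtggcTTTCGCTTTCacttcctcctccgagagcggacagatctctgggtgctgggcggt
TAPBP: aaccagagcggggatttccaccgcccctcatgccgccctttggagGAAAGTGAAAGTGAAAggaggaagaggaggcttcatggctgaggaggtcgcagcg

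These letters were found in 1255 of 35116 promoter windows (3.57%) and in 1195 of 27305 genes (4.38%). Of the MHC class I list, 5 of 5 members called higher with a window held it, and 2 of 8 members not called with a window did. Which factor was bound is not measured by them.

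PSMB8, an immunoproteasome subunit that cuts peptides for class I (chromosome 6, 32840717 to 32844703, minus strand), had 5.48 and 4.44 FPKM in D2_Co and 11 and 10.4 FPKM in D3_Co. Its log2 difference was 0.98 (SE 0.101, limma adjusted p = 0.00343), and its D3_Co libraries stood above the 5.33 and 5.21 FPKM of D3_Control. B2M, the light chain of class I, went from 47.4 and 47.7 FPKM to 59.6 and 68.0 FPKM, with 41.1 and 41.9 FPKM in D3_Control. TAP1 and TAP2, the chains of the peptide transporter, rose from 5.94 and 6.25 FPKM to 9.06 and 8.36 FPKM and from 3.46 and 3.32 FPKM to 4.59 and 5.34 FPKM, and TAPBP, the tapasin that loads peptides, from 27.6 and 27.3 FPKM to 34.7 and 33.9 FPKM. Of 16 measured members 6 rose and 0 fell (37.5%), with a median of 0.18. With D2_Co replicate 1, D2_Co replicate 3, D3_Co replicate 1 and D3_Co replicate 2 left out in turn, 2, 2, 3 and 4 were called higher. The calls of B2M, TAP1, TAP2 and TAPBP did not hold in all of those fits (highest limma adjusted p per gene between 0.0609 and 0.110).

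HLA-B, HLA-C and HLA-E, heavy chains of class I, did not pass the test. HLA-B had 37.5 and 40.9 FPKM in D2_Co and 41.1 and 43.6 FPKM in D3_Co, a log2 difference of 0.11 (limma adjusted p = 0.252). HLA-C had 157 and 162 FPKM in D2_Co and 165 and 179 FPKM in D3_Co, a difference of 0.11 (limma adjusted p = 0.206), and HLA-E a difference of 0.15 (limma adjusted p = 0.147). Reads of HLA genes depend on how the alleles of the line match the reference, and HLA-B shares 18.9% of its exonic bases with other genes. Near this list, PSME1, an activator of the immunoproteasome, had 20.1 and 20.9 FPKM in D2_Co and 31.1 and 31.8 FPKM in D3_Co and a log2 difference of 0.59 (SE 0.0505, limma adjusted p = 0.00230). CD74, the invariant chain of MHC class II, had 11.6 and 12.4 FPKM in D2_Co and 20.7 and 21 FPKM in D3_Co and a difference of 0.75 (SE 0.0616, limma adjusted p = 0.00230). UBE2L6, the enzyme that conjugates ISG15, rose from 16.9 and 16.1 FPKM to 30.8 and 30.9 FPKM (chromosome 11, 57551656 to 57568284, minus strand), with 23.7 and 25.2 FPKM in D3_Control. Both PSME1 and CD74 were chosen after their values were seen.

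Interferon-response genes were mostly not called. Of 18 measured members 3 rose and 0 fell (16.7%), with a median of 0.11, and 15 members, IFIT1, MX1, OAS1 and IFI44L among them, were below the filter. BST2, which tethers enveloped viruses, had 8.42 and 8.97 FPKM in D2_Co and 15.2 and 14.2 FPKM in D3_Co and a log2 difference of 0.69 (SE 0.0842, limma adjusted p = 0.00520). IFITM2 and IFITM3, membrane proteins that restrict viral entry and share sequence with each other, rose (log2 differences 0.28 and 0.26). The calls of IFITM2 and IFITM3 did not hold in all of those fits (highest limma adjusted p per gene between 0.0772 and 0.105), which leave out D2_Co replicate 1, D2_Co replicate 3, D3_Co replicate 1 or D3_Co replicate 2. Of 29 NF-kB targets 2 rose and 1 fell (6.9% and 3.45%, against 8.7% and 7.21% over all genes). CXCL5, a neutrophil chemokine, had 16.8 and 15.5 FPKM in D2_Co and 20.2 and 22.2 FPKM in D3_Co, and LTB, lymphotoxin beta, 1.53 and 1.20 FPKM in D2_Co and 2.33 and 3.92 FPKM in D3_Co, against 0.0939 and 0.0672 FPKM in D3_Control. TNFAIP2, a TNF-induced gene, fell from 29.6 and 30.0 FPKM to 18.9 and 18.7 FPKM, with a difference of -0.64 (SE 0.0519, limma adjusted p = 0.00230). The calls of CXCL5 and LTB did not hold in all of those fits (highest limma adjusted p per gene between 0.164 and 0.183). Of 18 signalling components 0 rose and 2 fell (11.1%), the adaptor genes MYD88 (-0.25) and TRAF6 (-0.31). The calls of MYD88 and TRAF6 did not hold in all of those fits (highest limma adjusted p per gene between 0.141 and 0.152), and 0 members of that list were called in any of them. The NF-kB subunit gene RELA had 19 and 19.7 FPKM in D2_Co and 18.1 and 15.5 FPKM in D3_Co and was not called (limma adjusted p = 0.125).

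Immediate early genes moved in opposite directions, with 3 of 22 measured members higher and 5 lower (13.6% and 22.7%). The shares over all genes were 8.7% and 7.21%. EGR1, a zinc finger factor induced by ERK and SRF, had 7.85 and 5.95 FPKM in D2_Co and 16.8 and 19 FPKM in D3_Co, with 16.0 and 8.09 FPKM in D1_Co. Both D3_Co libraries stood above both D1_Co libraries, which were far apart, and the log2 difference between day 2 and day 3 was 1.26 (SE 0.265, limma adjusted p = 0.0238). NR4A1, an orphan nuclear receptor, had 2.69 and 2.49 FPKM in D2_Co and 4.98 and 5.76 FPKM in D3_Co and JUND, an AP-1 factor, 75.1 and 69.2 FPKM in D2_Co and 112 and 106 FPKM in D3_Co. Their differences were 0.82 and 0.59. KLF10, a TGF-beta early gene, fell from 20.7 and 21.5 FPKM to 14.9 and 15.6 FPKM, and FOSL2, an AP-1 factor, from 14.3 and 14.6 FPKM to 9.91 and 10.6 FPKM, still above the 3.5 and 2.92 FPKM of D3_Control. The calls of EGR1 and FOSL2 did not hold in all of those fits (highest limma adjusted p per gene between 0.0762 and 0.112), namely those without D2_Co replicate 1, D2_Co replicate 3, D3_Co replicate 1 or D3_Co replicate 2. FOS had 9.38 and 7.11 FPKM in D2_Co and 9.90 and 12.1 FPKM in D3_Co (log2 difference 0.38, limma adjusted p = 0.209) and JUN 32.9 and 34.7 FPKM in D2_Co and 32.7 and 33.0 FPKM in D3_Co (-0.039, limma adjusted p = 0.729). The places of the FOS, JUN and JUND rows are unsettled.

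In the list of ATF4 and CHOP targets 4 of 37 measured members rose and 2 fell (10.8% and 5.41%, against 8.7% and 7.21% over all genes), with a median of 0.016. Among the rises is CDRT4, which is not known to be such a target and probably stands in the list by error. GDF15, a secreted stress cytokine induced by ATF4 and by p53 (chromosome 19, 18374731 to 18389176, plus strand), had 17.3 and 20.4 FPKM in D2_Co and 36.4 and 33.9 FPKM in D3_Co. Its levels in D1_Co and D3_Control were 15.9 and 15.4 FPKM and 11.9 and 12.2 FPKM, so that D3_Co stood above every other library, with a log2 difference of 0.87 (SE 0.0827, limma adjusted p = 0.00293). DDIT4, an inhibitor of mTORC1, had 21 and 22.0 FPKM in D2_Co and 31.4 and 35.3 FPKM in D3_Co against 7.6 and 7.70 FPKM in D3_Control, though it shares 41.2% of its exonic bases with another gene. MTHFD2, a mitochondrial folate enzyme, rose (log2 difference 0.36). CDRT4 was listed at 0 in both D2_Co and both D3_Control libraries and at 3.22 and 3.71 FPKM in D3_Co, and it shares 73.7% of its exonic bases with another gene. TVP23C-CDRT4, the read-through gene named for the same locus and chosen after its values were seen, went the opposite way, with 2.80 and 3.12 FPKM in D2_Co and 0.0436 and 0 FPKM in D3_Co, and its D1_Co libraries stood apart at 0.0246 and 2.27 FPKM, and how reads of this pair were divided is not stated. The amino acid transporter gene SLC7A5 fell from 230.4 and 219 FPKM to 175 and 164 FPKM, and ATF5 fell (log2 difference -0.24). ATF4 itself had 233 and 247 FPKM in D2_Co and 260.1 and 283 FPKM in D3_Co and was not called (limma adjusted p = 0.0931), nor was DDIT3, which encodes CHOP (5.38 and 4.40 FPKM in D2_Co and 3.5 and 5.16 FPKM in D3_Co, limma adjusted p = 0.599). Leaving out D2_Co replicate 1, D2_Co replicate 3, D3_Co replicate 1 and D3_Co replicate 2 in turn, 3, 2, 3 and 3 members were called higher. The calls of MTHFD2, CDRT4, TVP23C-CDRT4, SLC7A5 and ATF5 did not hold in all of those fits (highest limma adjusted p per gene between 0.0562 and 0.150).

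Among 39 p53 genes 8 rose and 3 fell (20.5% and 7.69%), with a median of 0.17. In the fits without D2_Co replicate 1, D2_Co replicate 3, D3_Co replicate 1 and D3_Co replicate 2, 4, 4, 2 and 4 were called higher. DDB2, which recognises DNA damaged by ultraviolet light, had 27.4 and 26.7 FPKM in D2_Co and 38.1 and 44.9 FPKM in D3_Co and a log2 difference of 0.59 (SE 0.0777, limma adjusted p = 0.00694). CCNG1, cyclin G1, went from 142 and 129 FPKM to 174 and 172 FPKM, RRM2B, a ribonucleotide reductase subunit, rose (log2 difference 0.45), as did ZMAT3, an RNA-binding target of p53 (0.40). PLK2, a polo-like kinase, fell from 101 and 90.4 FPKM to 64.0 and 64.6 FPKM. The calls of CCNG1, RRM2B, ZMAT3 and PLK2 did not hold in all of those fits (highest limma adjusted p per gene between 0.0537 and 0.0758). The pro-apoptotic list gave 3 rises and 2 falls of 25 (12% and 8%, against 8.7% and 7.21% over all genes). Among the rises was PMAIP1, the BH3-only protein NOXA, which had 42.7 and 37.0 FPKM in D2_Co and 54.6 and 60.3 FPKM in D3_Co. BNIP3 and BNIP3L, mitochondrial proteins of mitophagy also counted as hypoxia genes, rose (log2 differences 0.58 and 0.39). The caspase gene CASP2 fell (log2 difference -0.35), as did DIABLO, which relieves caspase inhibition (-0.30). Of 11 anti-apoptotic genes 1 rose, CFLAR (0.37), a share of 9.09%. The calls of PMAIP1, BNIP3, BNIP3L, CASP2, DIABLO and CFLAR did not hold in all of those fits (highest limma adjusted p per gene between 0.0609 and 0.182).

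CBR1, a carbonyl reductase and NRF2 target, showed a rise next to that of ZFP42 among the 24 genes of largest change (chromosome 21, 36069941 to 36073166, plus strand). It had 7.20 and 6.71 FPKM in D2_Co and 26.8 and 25.2 FPKM in D3_Co, 11.9 and 12.6 FPKM in D1_Co and 19.4 and 23.9 FPKM in D3_Control. As for ZFP42, day 2 was the lowest group, and the log2 difference was 1.76 (SE 0.0981, limma adjusted p = 0.000543). CBR1 shares 18.9% of its exonic bases with another gene. In the NRF2 list as a whole the calls went both ways, with 5 of 33 members higher and 4 lower (15.2% and 12.1%) and a median of 0.023. Over all genes the shares were 8.7% and 7.21%. PIR, pirin, an iron-binding nuclear protein, had 7.10 and 7.14 FPKM in D2_Co and 11.1 and 11.6 FPKM in D3_Co, SQSTM1, the autophagy adaptor p62, fell from 124 and 115 FPKM to 86.0 and 82.7 FPKM, NQO1, a quinone reductase, fell (log2 difference -0.25), as did SRXN1, sulfiredoxin (-0.35). The factor gene NFE2L2 was not called (15.8 and 17.5 FPKM in D2_Co and 18.1 and 18.5 FPKM in D3_Co, limma adjusted p = 0.215). Of 31 heat shock genes 5 rose and 2 fell (16.1% and 6.45%), and with median-of-ratios scaling 2 rose. HSPA8, the constitutive HSP70, fell from 1149 and 1197 FPKM to 1016 and 994 FPKM, after 1541 and 1630.2 FPKM in D1_Co, and DNAJA1, its J-domain partner (-0.23). HSPE1, the mitochondrial HSP10, rose (log2 difference 0.26), as did HSPA4 (0.23). HSF1 had 40.0 and 47.6 FPKM in D2_Co and 40.9 and 44.7 FPKM in D3_Co (limma adjusted p = 0.874). The calls of NQO1, SRXN1, HSPA8, DNAJA1, HSPE1 and HSPA4 did not hold in all of those fits (highest limma adjusted p per gene between 0.0630 and 0.151), the fits without D2_Co replicate 1, D2_Co replicate 3, D3_Co replicate 1 or D3_Co replicate 2. Of 29 endoplasmic reticulum chaperone and unfolded protein response genes 1 rose, HSP90B1 (0.21), and 3 fell, XBP1 (-0.19), SEC24D (-0.24) and CREB3L2 (-0.32). These are shares of 3.45% and 10.3%. The calls of HSP90B1, XBP1, SEC24D and CREB3L2 did not hold in all of those fits (highest limma adjusted p per gene between 0.0857 and 0.144).

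Some metallothioneins, which bind zinc and copper, rose. Of 21 measured metallothionein and zinc transporter genes 4 rose and 1 fell (19% and 4.76%). MT1G had 6.62 and 6.33 FPKM in D2_Co and 15.0 and 13.3 FPKM in D3_Co, with 5.12 and 4.68 FPKM in D1_Co and 34.8 and 44.4 FPKM in D3_Control (chromosome 16, 56666731 to 56668065, minus strand). Day 3 of co-culture thus lay above days 1 and 2 and below D3_Control, with log2 differences of 1.02 (SE 0.117, limma adjusted p = 0.00465) against day 2 and -1.41 (SE 0.117, limma adjusted p = 0.000557) against D3_Control. MT1F went from 13.9 and 13.1 FPKM to 26.0 and 20.0 FPKM against 41.0 and 44.0 FPKM in D3_Control, and MT2A rose (log2 difference 0.33). MT1H had 0.843 and 0 FPKM in D2_Co and 2.20 and 2.74 FPKM in D3_Co, on a row whose place is unsettled. SLC30A1, the zinc exporter of the plasma membrane, fell from 8.04 and 8.37 FPKM to 5.28 and 4.70 FPKM. Metallothionein copies are near-identical, so that levels of single members are uncertain. The calls of MT1F, MT2A, MT1H and SLC30A1 did not hold in all of those fits (highest limma adjusted p per gene between 0.0706 and 0.141), which leave out D2_Co replicate 1, D2_Co replicate 3, D3_Co replicate 1 or D3_Co replicate 2.

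Growth genes showed small shifts. Of 59 MYC targets and ribosome biogenesis genes 11 fell (18.6%) and 4 rose (6.78%, or 2 genes with median-of-ratios scaling), with a median of -0.073. The shares over all genes were 7.21% and 8.7%. MYCN, the MYC of neural and pluripotent cells, had 20.2 and 18.1 FPKM in D2_Co and 13.6 and 12.8 FPKM in D3_Co, with 14.3 and 16.2 FPKM in D1_Co and 25.8 and 27.7 FPKM in D3_Control. MYC had 31.5 and 29.2 FPKM in D2_Co and 24.1 and 23.4 FPKM in D3_Co. Their log2 differences were -0.50 (SE 0.0827, limma adjusted p = 0.0126) and -0.34 (SE 0.0604, limma adjusted p = 0.0150). GRWD1 and RRP9, assembly factors of ribosomal subunits, fell (log2 differences -0.40 and -0.32), ODC1, the first enzyme of polyamine synthesis (-0.33), and NOP56, a box C/D core protein (-0.27), while NPM1, nucleophosmin, rose (log2 difference 0.21). Among 76 genes of cytosolic ribosomal proteins, 11 were called higher and 0 lower (14.5% higher), with a median of 0.14, and 68 of 76 differences lay above 0. RPL39 rose (log2 difference 0.36), as did RPL23A (0.36), RPS27A (0.24) and RPL4 from 1113 and 1086 FPKM to 1273 and 1271 FPKM. The ribosomal protein calls moved with library and scaling. When D2_Co replicate 1, D2_Co replicate 3, D3_Co replicate 1 and D3_Co replicate 2 were left out in turn, 0, 3, 0 and 3 genes of that list were called higher, and 2 with median-of-ratios scaling, and 2, 3, 3 and 2 ribosome biogenesis genes were called lower. The calls of MYCN, MYC, GRWD1, RRP9, ODC1, NOP56, NPM1, RPL39, RPL23A, RPS27A and RPL4 did not hold in all of those fits (highest limma adjusted p per gene between 0.0573 and 0.178). Ribosomal protein genes have many processed pseudogenes that can share their reads.

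Among 43 genes of G2/M and mitosis, 13 were called higher and 1 lower (30.2% and 2.33%), with a median of 0.12. With median-of-ratios scaling 7 rose. The shares over all genes in the main fit were 8.7% and 7.21%. TOP2A, the topoisomerase that untangles sister chromatids, had 42.1 and 42.2 FPKM in D2_Co and 63.1 and 61.8 FPKM in D3_Co and a log2 difference of 0.56 (SE 0.0427, limma adjusted p = 0.00212). PTTG1, securin, had 94.6 and 95.5 FPKM in D2_Co and 138 and 127 FPKM in D3_Co, a difference of 0.47 (SE 0.0678, limma adjusted p = 0.00861). MKI67, which coats mitotic chromosomes, had 16.4 and 24.3 FPKM in D2_Co and 29.4 and 33.4 FPKM in D3_Co, CENPE, a kinetochore motor, rose (log2 difference 0.55), as did CENPF (0.45). The gene of the mitotic transcription factor FOXM1 fell (log2 difference -0.20). Among 52 genes of G1/S and replication, 3 rose and 5 fell (5.77% and 9.62%), with a median of -0.032. With median-of-ratios scaling 8 fell. UHRF1, which reads newly copied methylated DNA, had 20.3 and 19.5 FPKM in D2_Co and 15.0 and 13.4 FPKM in D3_Co, and CCNE2, a G1 cyclin, 1.16 and 1.28 FPKM in D2_Co and 0.380 and 0.711 FPKM in D3_Co. PRIM1, the primase catalytic subunit, rose (log2 difference 0.43), as did WDHD1, which links helicase and polymerase (0.36). Without D2_Co replicate 1, D2_Co replicate 3, D3_Co replicate 1 and D3_Co replicate 2 in turn, 4, 6, 3 and 3 mitosis genes were called higher. The calls of MKI67, CENPE, CENPF, FOXM1, CCNE2, PRIM1 and WDHD1 did not hold in all of those fits (highest limma adjusted p per gene between 0.0535 and 0.159).

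Oxidative phosphorylation genes of the nuclear genome gave 6 calls higher and 0 lower of 60 (10% higher), a share near the 8.7% of all genes. NDUFA5, a complex I subunit, had 4.69 and 3.71 FPKM in D2_Co and 9.87 and 7.20 FPKM in D3_Co, and UQCRH, a complex III subunit, 138 and 149.6 FPKM in D2_Co and 197 and 178 FPKM in D3_Co. The lowest difference in the list was -0.14. COX11, an assembly factor that carries copper to cytochrome c oxidase, is not a member of the list and fell far (chromosome 17, 54951902 to 54968785, minus strand). It had 20.9 and 20.8 FPKM in D2_Co and 6.23 FPKM in each library of D3_Co, with 16.7 and 19.6 FPKM in D1_Co and 19.5 and 20.6 FPKM in D3_Control. The D3_Co libraries alone were low, with log2 differences of -1.60 (SE 0.0780, limma adjusted p = 0.000376) from day 2 and -1.54 (SE 0.0780, limma adjusted p = 0.000139) from D3_Control. STXBP4, a syntaxin-binding protein whose gene lies on the opposite strand and overlaps COX11 (chromosome 17, 54968727 to 55173632, plus strand), had 1.71 and 1.78 FPKM in D2_Co and 4.11 and 4.09 FPKM in D3_Co, chosen after its values were seen. Its difference was 0.89 (SE 0.123, limma adjusted p = 0.00771). COX11 shares 14.9% of its exonic bases with other genes, and the labels do not say whether strand was used in counting. Reads of the shared bases cannot be assigned to 1 gene, and their part in these differences was not tested. Among RNAs of the mitochondrial genome, RNR1, the small ribosomal RNA, had 2219 and 2076 FPKM in D2_Co and 687 and 852 FPKM in D3_Co, with 1170.0 and 962 FPKM in D1_Co and 837 and 1006 FPKM in D3_Control. D2_Co was thus the high group, and the log2 difference to day 3 was -1.49 (SE 0.140, limma adjusted p = 0.00288). RNR2, the large ribosomal RNA, had 6649 and 5777 FPKM in D2_Co and 2864 and 4074 FPKM in D3_Co, and the transfer RNAs TRNV and TRNF fell (log2 differences -1.24 and -1.14). The calls of NDUFA5, UQCRH, RNR2, TRNV and TRNF did not hold in all of those fits (highest limma adjusted p per gene between 0.0714 and 0.172), without D2_Co replicate 1, D2_Co replicate 3, D3_Co replicate 1 or D3_Co replicate 2. In libraries of polyA RNA such molecules depend on how well the selection worked, and their part in the other differences between the days was not tested.

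Glycolysis and hypoxia-response genes rose more often than they fell, 9 and 3 of 38 (23.7% and 7.89%), with a median of 0.089. The shares over all genes were 8.7% and 7.21%. ALDOC, an aldolase, had 22.6 and 24.9 FPKM in D2_Co and 33.6 and 32.7 FPKM in D3_Co, LDHA, lactate dehydrogenase A, 187 and 192 FPKM in D2_Co and 241 and 229 FPKM in D3_Co, and P4HA1, a prolyl hydroxylase of collagen, 12.9 and 11.8 FPKM in D2_Co and 16.9 and 16.3 FPKM in D3_Co. Their log2 differences were 0.47, 0.31 and 0.40. ADM, the peptide adrenomedullin, fell from 89.8 and 87.7 FPKM to 50.6 and 48.2 FPKM, close to the 48.8 and 46.0 FPKM of D3_Control, with a difference of -0.83 (SE 0.0503, limma adjusted p = 0.000755). PFKFB3, which sets fructose 2,6-bisphosphate, fell (log2 difference -0.62), as did PKM, pyruvate kinase (-0.22). HIF1A had 84.9 and 81.6 FPKM in D2_Co and 84.6 and 84.1 FPKM in D3_Co (limma adjusted p = 0.809). The count of rises fell in fits that left 1 library in a group, as the count over all genes did. Without D2_Co replicate 1, D2_Co replicate 3, D3_Co replicate 1 and D3_Co replicate 2 in turn, 3, 1, 0 and 3 members were called higher. The calls of ALDOC, LDHA, P4HA1, PFKFB3 and PKM did not hold in all of those fits (highest limma adjusted p per gene between 0.0517 and 0.134).

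Of 31 cholesterol synthesis genes 3 rose and 2 fell (9.68% and 6.45%, against 8.7% and 7.21% over all genes). SREBF2, the gene of the pathway's transcription factor, had 106 and 119 FPKM in D2_Co and 119.7 and 127 FPKM in D3_Co (limma adjusted p = 0.191). Of 20 fatty acid synthesis genes 3 rose and 1 fell (15% and 5%). ACSS2, which makes acetyl-CoA from acetate, had 13.5 and 14.5 FPKM in D2_Co and 19.6 and 20.4 FPKM in D3_Co, with 8.07 and 8.57 FPKM in D1_Co and 11.2 and 11.4 FPKM in D3_Control. The days ran upwards without overlap, and the difference of day 3 from day 2 was 0.49 (SE 0.0624, limma adjusted p = 0.00662). CH25H, cholesterol 25-hydroxylase, had 18.9 and 18.7 FPKM in D2_Co and 30.2 and 29.7 FPKM in D3_Co, a difference of 0.64 (SE 0.0762, limma adjusted p = 0.00493), but with rows restored against D3_Control in place of D1_Co the difference was -0.05, so this call depends on the restored row. Without D2_Co replicate 1, D2_Co replicate 3, D3_Co replicate 1 and D3_Co replicate 2 in turn, 0, 0, 1 and 1 cholesterol genes were called higher.

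Of the binding proteins of insulin-like growth factors, IGFBP5 and IGFBP3 fell from their highest level, on day 2. Of 15 measured genes of the list of these factors, their receptors and binding proteins 6 fell and 1 rose (40.0% and 6.67%), with a median of -0.12. The shares over all genes were 7.21% and 8.7%. IGFBP5 had 7.78 and 8.09 FPKM in D2_Co and 1.53 and 1.61 FPKM in D3_Co (chromosome 2, 216672105 to 216695525, minus strand), with 2.17 and 1.88 FPKM in D1_Co and 0.519 and 0.615 FPKM in D3_Control. D2_Co was the high group, and the log2 differences were 1.56 (SE 0.0904, limma adjusted p = 0.00143) into day 2 and -1.80 (SE 0.0904, limma adjusted p = 0.000376) out of it. IGFBP3 had 8.08 and 7.20 FPKM in D2_Co and 3.13 and 3.19 FPKM in D3_Co, with 3.34 and 3.24 FPKM in D1_Co, and was highest in D2_Co too, with 2.94 and 2.57 FPKM in D3_Control. Its difference was -1.05 (SE 0.0870, limma adjusted p = 0.00230). IGFBP6 and IGFBP7 fell (log2 differences -0.84 and -0.68), and IGFBP4 rose (log2 difference 0.36). Without D2_Co replicate 1, D2_Co replicate 3, D3_Co replicate 1 and D3_Co replicate 2 in turn, 4, 4, 2 and 4 members were called lower. The calls of IGFBP6, IGFBP7 and IGFBP4 did not hold in all of those fits (highest limma adjusted p per gene between 0.0513 and 0.0751).

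Retinoid genes included large changes of either sign. Of 14 measured members 3 fell and 2 rose (21.4% and 14.3%, against 7.21% and 8.7% over all genes). CYP26A1, the enzyme that breaks down retinoic acid, had 6.76 and 8.69 FPKM in D2_Co and 2.18 and 3.26 FPKM in D3_Co and a log2 difference of -1.24 (SE 0.175, limma adjusted p = 0.00849). CRABP1, which binds retinoic acid in the cytoplasm, had 90.2 and 90.4 FPKM in D2_Co and 173 and 154 FPKM in D3_Co, with 104 FPKM in each library in D1_Co and 172 and 176 FPKM in D3_Control. D3_Co overlapped D3_Control and stood above both earlier days, with a difference of 0.85 (SE 0.0603, limma adjusted p = 0.00155). It shares 47.2% of its exonic bases with another gene. RARA, a retinoic acid receptor, fell (log2 difference -0.40), as did DHRS3, which reduces retinal (-0.46). Of 13 DNA methylation genes 3 fell and 1 rose (23.1% and 7.69%). TET1, which oxidises methylcytosine, had 9.23 and 11.4 FPKM in D2_Co and 16.2 and 15.4 FPKM in D3_Co. MBD3 fell (log2 difference -0.34), as did DNMT3A (-0.20). The calls of RARA, DHRS3, TET1 and DNMT3A did not hold in all of those fits (highest limma adjusted p per gene between 0.0758 and 0.133), without D2_Co replicate 1, D2_Co replicate 3, D3_Co replicate 1 or D3_Co replicate 2.

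Of 32 lysosome and autophagy genes 4 rose and 5 fell (12.5% and 15.6%, against 8.7% and 7.21% over all genes), among them WIPI1, a phosphoinositide-binding protein of autophagosomes, from 10.8 and 9.65 FPKM to 15.2 and 17.6 FPKM. Of 33 proteasome genes 1 rose, PSME1, and 2 fell, PSMD2 (-0.37) and PSMC4 (-0.26), shares of 3.03% and 6.06%. Of 20 cytosolic synthetase genes 2 rose, AARS1 (0.29) and LARS1 (0.20), and HARS1 fell (-0.33). These shares of 10% and 5% were near the 8.7% and 7.21% of all genes. In the cell competition list of 29 measured genes, 5 were called lower and 0 higher (17.2% and 0%). The 5 were MYC, MYCN, MYD88, DIABLO and SPARC, a matricellular protein (log2 difference -0.26). Without D2_Co replicate 1, D2_Co replicate 3, D3_Co replicate 1 and D3_Co replicate 2 in turn, 0, 2, 1 and 0 of the cell competition list were called lower. Of 5 measured neuroectoderm factors 1 fell, NES, the intermediate filament nestin, from 209.7 and 221 FPKM to 186 and 188 FPKM. The calls of WIPI1, PSMC4, AARS1, LARS1, HARS1, MYC, MYCN, MYD88, DIABLO, SPARC and NES did not hold in all of those fits (highest limma adjusted p per gene between 0.0546 and 0.177), without D2_Co replicate 1, D2_Co replicate 3, D3_Co replicate 1 or D3_Co replicate 2.

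**Figure D5:**
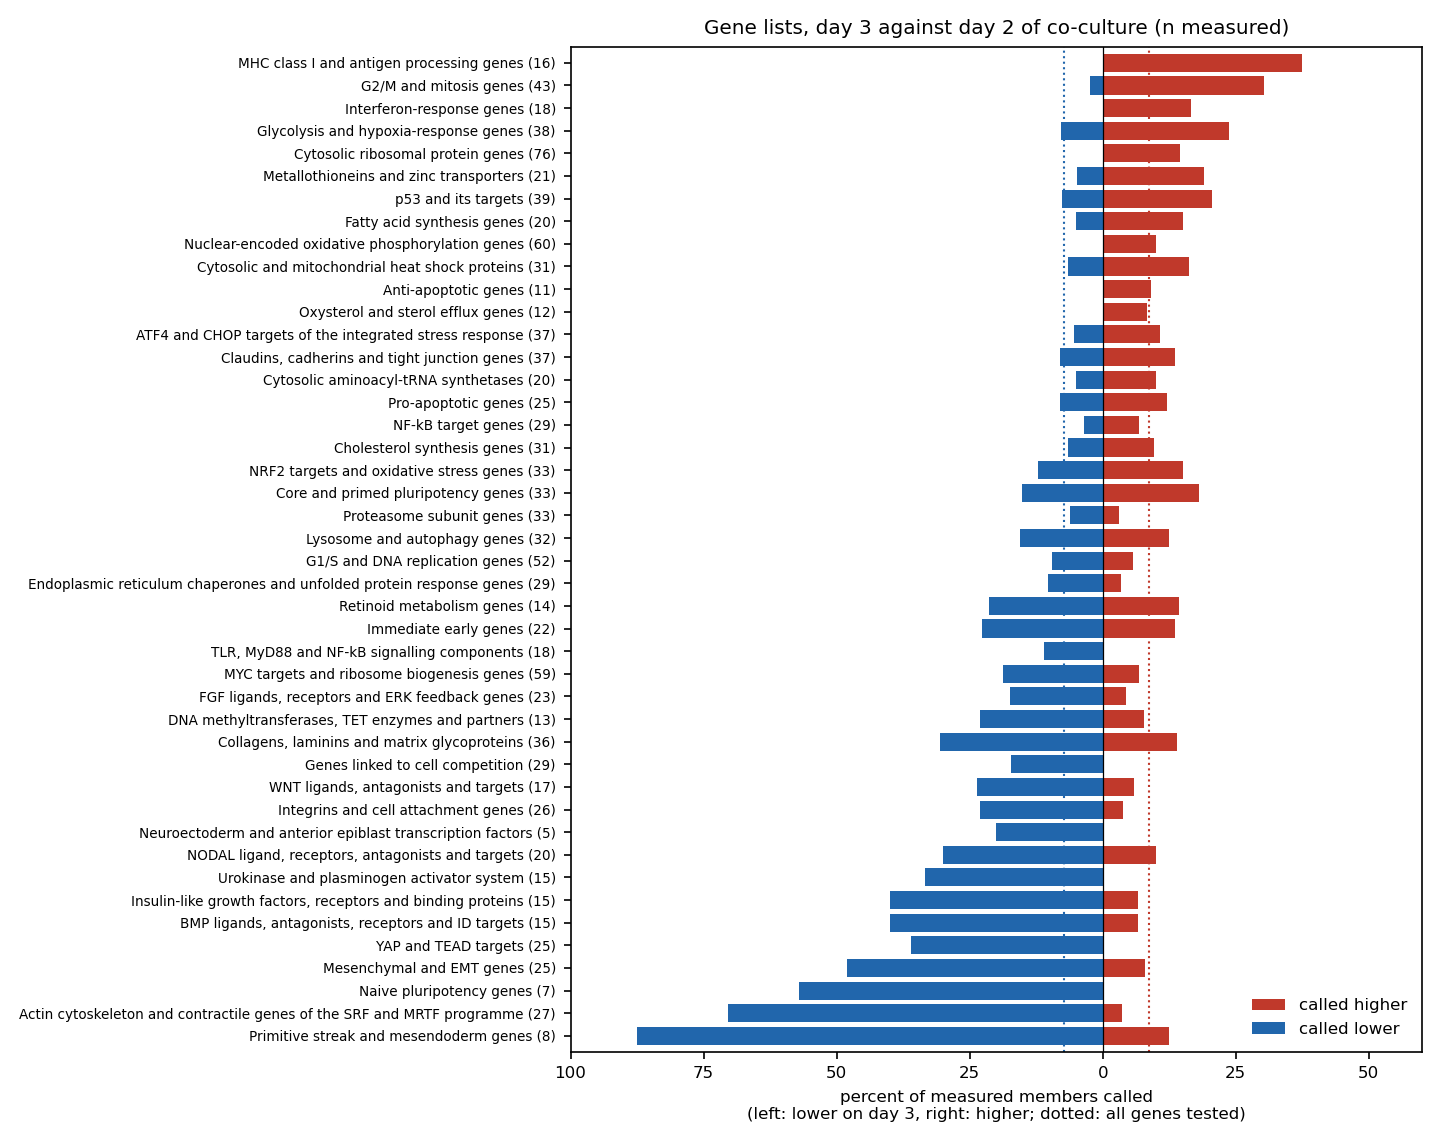
Percent of the measured members of each gene list called higher (red, right) or lower (blue, left) on day 3 against day 2, with the number of measured members in brackets. Dotted lines mark the same over all 12449 genes, 8.7% higher and 7.21% lower. The primitive streak list reaches 87.5% lower and the MHC class I list 37.5% higher. Some streak members passed the filter only through groups in which they were high. At a mean of at least 5 FPKM, 1 streak member was called lower and 1 higher.

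The remaining genes of largest change belong to no group above. EMP1, an epithelial membrane protein (chromosome 12, 13196716 to 13219939, plus strand), had 5.65 and 8.53 FPKM in D2_Co and 0.925 and 1.47 FPKM in D3_Co, a log2 difference of -1.87 (SE 0.195, limma adjusted p = 0.00356). NPPB, the natriuretic peptide of stretched heart muscle (chromosome 1, 11857464 to 11858931, minus strand), had 16.0 and 14.3 FPKM in D2_Co and 3.47 and 5.19 FPKM in D3_Co. It stood at 6.96 and 6.01 FPKM in D1_Co and 0.802 and 0.660 FPKM in D3_Control, so that day 2 was again the high group. The difference to day 3 was -1.62 (SE 0.157, limma adjusted p = 0.00304). PTHLH, a parathyroid hormone-related peptide (chromosome 12, 27958084 to 27972705, minus strand), had 4.93 and 5.67 FPKM in D2_Co and 1.20 and 1.07 FPKM in D3_Co and 0.0557 and 0 FPKM in D3_Control, a difference between the days of -1.56 (SE 0.158, limma adjusted p = 0.00327). ESAM, an adhesion molecule of endothelium (chromosome 11, 124752583 to 124762290, minus strand), had 10.5 and 11.8 FPKM in D2_Co and 3.10 and 3.38 FPKM in D3_Co. Its D1_Co and D2_Co libraries overlapped, and day 3 lay -1.52 from day 2. SFTA1P, a non-coding RNA (chromosome 10, 10784437 to 10794980, minus strand), had 5.07 and 6.67 FPKM in D2_Co and 1.47 and 1.62 FPKM in D3_Co. SOX14, a transcription factor of neural tissue (chromosome 3, 137764284 to 137766338, plus strand), had 14.9 and 19.2 FPKM in D2_Co and 5.64 and 5.96 FPKM in D3_Co and 2.44 and 2.11 FPKM in D3_Control. Their differences were -1.42 (SE 0.133, limma adjusted p = 0.00286) and -1.40 (SE 0.156, limma adjusted p = 0.00428).

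Among the risers, TMEM30B, a subunit of lipid flippases (chromosome 14, 61277370 to 61281840, minus strand), had 2.18 FPKM in each library of D2_Co and 5.70 and 5.74 FPKM in D3_Co. PCAT6, a non-coding RNA (chromosome 1, 202810954 to 202812156, plus strand), had 5.68 and 6.36 FPKM in D2_Co and 12.5 and 13.9 FPKM in D3_Co, and D1_Co and D3_Control stood near day 2, at 6.25 and 6.12 FPKM and 5.35 and 6.43 FPKM. D3_Co was thus apart from all other groups. EEF1A2, the elongation factor of neurons and muscle (chromosome 20, 63488012 to 63499322, minus strand), was also highest in D3_Co, with 7.53 and 6.35 FPKM in D2_Co and 13.7 and 14.1 FPKM in D3_Co and 6.83 and 6.78 FPKM in D3_Control. TUBB4A, a beta-tubulin that shares 15.9% of its exonic bases with other genes (chromosome 19, 6494319 to 6502848, minus strand), had 5.79 and 6.06 FPKM in D2_Co and 12.9 and 11.6 FPKM in D3_Co. APLN, the ligand of the apelin receptor (chromosome X, 129645259 to 129654937, minus strand), had 2.58 and 2.70 FPKM in D2_Co and 4.99 and 6.20 FPKM in D3_Co. The log2 differences were 1.08 for TMEM30B, 1.02 for PCAT6, 0.91 for EEF1A2, 0.93 for TUBB4A and 0.85 for APLN. All were called in each fit without 1 of the 4 libraries, which the rule for the genes of largest change required.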

How the data were processed

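The measure was polyA RNA of H9 cells in 8 libraries of 4 groups, 2 libraries each, with groups and replicate numbers taken from the titles. The deposited values are FPKM per gene, which the authors made with HISAT2 2.1.0 and StringTie 1.3.3b against GRCh38.p12, per the submitters' processing notes. Settings and use of strand are not given in the sources used here, and read numbers are unknown.

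The table has 45961 gene numbers. In it, each library stood in the order of its own lines sorted as text, so that values of gene numbers that begin a longer number sat on other rows. An exact search over all orders that such a sort allows, with the absolute log2 difference from D1_Co replicate 2 as its cost (limit 4 per gene), moved values in 13114 rows. Sorting the restored libraries again gave back the rows as deposited in 7 of 7 libraries, which the search requires of every order it allows. Such an order existed for 7 of 7 libraries when the sort ignored the decimal point, and for 0 when the point counted. The lowest correlation between libraries of a group rose from 0.912 to 0.996, but the search itself draws each library towards D1_Co replicate 2. Places that changed under random changes of the reference are called unsettled (993 rows).

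Genes with a mean of at least 1 FPKM and a name that matched their number were tested. Of 13104 genes that reached this mean, the name check left out 655. Limma 3.58.1 in R 4.3.3 was run on log2(FPKM + 1) with 4 group means over 8 libraries, a mean-variance trend and Benjamini-Hochberg adjustment, and a gene was called at an adjusted p under 0.05. Differences on this scale understate those of low genes. The script was tested on simulated data. Alternatives were the pseudocount, the filter, scaling, samples in the fit, the trend, a replicate block, the treatment of rows and leaving out each library. D2_Co and D3_Co share only replicate number 1, so the numbers do not pair the samples.

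By the rule for named genes, the text gives the 12 largest rises and 12 largest falls of settled genes that reached a mean of 5 FPKM, did not overlap between the days and were called in all fits without 1 of the 4 libraries, up to 3 called members per list and direction by the smallest p, and a set of pathway factors. The comparison, the lists and their members were chosen with earlier results of these data known, and genes named beyond the rule were chosen after their values were seen. Coordinates are from GENCODE 29 (GRCh38) and promoters from RefSeq (GRCh38.p14). Some genes that the rule names are not reported here, though they stay in the counts.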

Additional observations from a re-analysis of the deposited data

Results flagged for a closer look

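Among the genes of largest change, the 20 below differed between the steps from day 2 to day 3 and from day 1 to day 2 in the limma contrast of the steps (adjusted p under 0.05). The values are log2 differences of the later step minus the earlier step. The later step was higher for ZFP42 (3.06), CBR1 (2.50), TMEM30B (1.33), PSMB8 (1.29), APLN (1.21), PCAT6 (1.05), EEF1A2 (0.92) and UBE2L6 (0.92). It was lower for IGFBP5 (-3.36), FGF17 (-2.93), NPPB (-2.73), RNR1 (-2.50), PTHLH (-2.47), MYL7 (-2.42), SFTA1P (-2.37), EMP1 (-2.35), COX11 (-1.79), SOX14 (-1.69), LEFTY2 (-1.61) and ESAM (-1.52). These genes were picked for their later step, and both steps share the D2_Co libraries, so a D2_Co level that stands apart enters both with opposite signs.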

How the results depend on the processing

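The main fit called 1980 genes (1083 higher, 897 lower). A total of 1033 genes (550 and 483) was called with only the D2_Co and D3_Co libraries fitted. With only rows in place tested, the total was 1218 (685 and 533). These are totals of each fit, and not the part of the 1980 genes that stayed called. With the replicate block, which pairs libraries by number although D2_Co and D3_Co share only number 1, 720 were called (366 and 354), 131 list members, and 44 genes for the difference of the steps. Leaving out 1 library gave 475 to 1686 calls, 233 to 903 higher and 209 to 783 lower. The 66 genes over 2-fold became 136 with log2(FPKM + 0.1), 29 at a mean of at least 5 FPKM and 32 with only rows in place. The 289 called list members became 192 without a filter, 171 with only the D2_Co and D3_Co libraries, 156 with only rows in place and 90 to 264 without 1 library. The 549 genes of the step difference became 241 without a filter, 349 without the trend, 306 with only rows in place and 28 to 357 without 1 library, and this contrast could not be fitted with only the D2_Co and D3_Co libraries. Of the 24 genes of largest change, 10 were left and called with only rows in place, where fewer genes are tested, and 17 at a mean of at least 5 FPKM. In the other alternatives the count of all calls lay between 1547 and 2016. The named genes, with those not reported here, number 286, and 268 were called in the main fit. Of these 268, 131 stayed called in every alternative that tested them, other than leaving out a library. Of the named genes, 7 changed sign or came to 0 in some alternative. The log2 difference became 0 for ACTB with quantile normalization, and -0.047 for CH25H with rows restored against D3_Control. Among genes not called, it became -0.013 for HIF1A with median-of-ratios scaling and -0.0031 with the replicate block (-0.0086 to 0.048 without 1 library), 0.019 for HSF1 with the block (-0.15 to 0.092 without 1 library), and -0.0050 for SOX2 with quantile normalization (-0.0046 to 0.11 without 1 library). Without 1 library it ran from -0.38 to 0.070 for DDIT3 and from -0.096 to 0.0054 for NANOG. The 0 of ACTB, the most abundant gene of each library, follows from how that method works, and the cause of the other changes was not tested. With 2 libraries a group and unknown read numbers, small differences of low genes were not detectable.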

Other observations

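Marker lists of cell types other than those above also differed between the days in summed level. The 15 trophoblast and amnion markers summed to 9.33 to 13.0 FPKM in D2_Co and 7.91 to 8.19 FPKM in D3_Co, with 11 of them under 1 FPKM in all 4 libraries and CDX2, CGA and HAND1 listed at 0. GATA3, a factor of trophoblast and amnion, had 1.70 FPKM in each library of D2_Co and 0.597 and 0.545 FPKM in D3_Co and a log2 difference of -0.78 (SE 0.106, limma adjusted p = 0.00743), though the place of its row is unsettled. The 12 heart and muscle markers summed to 3.0 to 3.88 FPKM in D2_Co and 4.87 to 5.13 FPKM in D3_Co, with 10 under 1 FPKM and MYOD1 and MYH7 listed at 0. TNNI3, cardiac troponin I, had 0.322 and 0.704 FPKM in D2_Co and 2.81 and 2.25 FPKM in D3_Co (log2 difference 1.23). Its direction was opposite to that of the contractile genes ACTC1 and MYL7. The sum rose through TNNI3, and other members went both ways at low levels. TNNT2 fell from 1.15 and 1.26 FPKM to 0.802 and 0.913 FPKM and NKX2-5 from 0.303 and 0.443 FPKM to 0 and 0.0482 FPKM. DES rose from 0.467 and 0.485 FPKM to 0.583 and 0.695 FPKM. The 13 blood and endothelial markers summed to 21.1 to 21.3 FPKM in D2_Co and 27.1 to 28.0 FPKM in D3_Co, with PTPRC and TAL1 listed at 0. This sum is mostly KDR, at 16.7 and 16.2 FPKM in D2_Co and 22.5 and 21.5 FPKM in D3_Co. Members below the filter went both ways. RUNX1 fell from 1.34 and 1.47 FPKM to 0.421 and 0.575 FPKM and CDH5 from 1.40 and 1.43 FPKM to 0.833 and 0.824 FPKM. SPI1 rose from 0.309 and 0.658 FPKM to 1.10 and 1.05 FPKM. TEK, the angiopoietin receptor, had 1.31 and 1.15 FPKM in D2_Co and 2.92 and 2.73 FPKM in D3_Co and 3.41 and 3.25 FPKM in D3_Control (log2 difference between the days 0.78 (SE 0.0992, limma adjusted p = 0.00648)). The 15 neuron and glia markers summed to 397 to 422 FPKM in D2_Co and 360 to 381 FPKM in D3_Co. This sum is mostly TUBB3, at 366 and 385 FPKM in D2_Co and 343 and 317 FPKM in D3_Co. Of the 4 neuron and glia markers that were tested, 3 had a difference above 0 and 1 below, and 0 were called. The part of such cells in the differences was not tested.

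Some large changes lay outside every list, in genes chosen after their values were seen. LNCPRESS1, a long non-coding RNA of human embryonic stem cells that p53 represses, had 0.690 and 0.790 FPKM in D2_Co and 4.36 and 4.92 FPKM in D3_Co, with 1.18 and 1.28 FPKM in D1_Co and 3.85 and 2.48 FPKM in D3_Control. It had the order of ZFP42 in that D2_Co was lowest, and its log2 difference was 1.69 (SE 0.156, limma adjusted p = 0.00286). CST1, a secreted cystatin that inhibits cysteine proteases, had 60.5 and 62.4 FPKM in D1_Co, 28.6 and 33.7 FPKM in D2_Co and 9.39 and 7.91 FPKM in D3_Co, and 5.69 and 5.09 FPKM in D3_Control, on a row whose place is unsettled. KCNMB1, the smooth muscle subunit of a potassium channel, had 7.70 and 7.54 FPKM in D2_Co and 3.27 and 3.13 FPKM in D3_Co and 2.85 and 2.80 FPKM in D1_Co, so that it was highest on day 2 as MYL7 was. SOCS3, a feedback inhibitor of JAK and STAT signalling, went from 11.6 and 10.4 FPKM to 5.86 and 5.59 FPKM (log2 difference -0.84), FZD2, a WNT receptor, from 17.6 and 17.8 FPKM to 8.27 and 8.42 FPKM (-1.0) and HAS2, a hyaluronan synthase, from 5.55 and 4.95 FPKM to 2.94 and 2.14 FPKM (-0.83). EDNRB, an endothelin receptor, rose from 0.648 and 0.589 FPKM to 2.20 and 2.05 FPKM (0.95). In fits that each left out D2_Co replicate 1, D2_Co replicate 3, D3_Co replicate 1 or D3_Co replicate 2, the call of TNNI3 did not hold in all (highest limma adjusted p = 0.0722), while the other calls named here did.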
